A study of Mus musculus with 18 samples.

Results

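The comparison set the ovaries of the mice that ovulated the most oocytes against the ovaries of those that ovulated the fewest. It rests on 4 of the 18 arrays of the study, chosen by their labels: the control mouse with the highest oocyte number, the control mouse with the lowest, and the same 2 extremes of the transported group, each array holding the ovary of 1 mouse. All mice were females of the strain labelled BABL/c, drawn at 6 weeks of age as 10 littermate pairs that were split at random between the groups, and all were superovulated at 9 weeks. Mice of the stress group were driven 1000 km in about 10 h at 50 km/h, away from the laboratory and back, and controls stayed in the laboratory. All 4 mice therefore carried the hormone treatment, and only the 2 stress mice the transport. The 8 mice of a group between the extremes were mixed into 1 pool per group, and these 2 ovary pools stayed outside the comparison. Oocyte numbers, hormone doses, the time from ovulation to dissection and whether any of the 4 mice were littermates are not given in the sources used here. The high and the low mouse of a treatment also differ in everything else that differs between 2 animals, and these differences cannot be told apart from the class.

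Superovulation uses gonadotropins in the place of the animal's own follicle-stimulating and luteinizing hormone. The first drives granulosa cells of growing follicles to divide and to make oestradiol and inhibins. The second triggers ovulation: cumulus cells around the oocyte build a hyaluronan matrix, the follicle wall, which is rich in collagen, is opened by proteases, and the emptied follicle becomes a corpus luteum that makes progesterone. An ovary after ovulation is thus a mixture of corpora lutea, remaining follicles with their oocytes, stroma and vessels. In whole ovaries, fewer cells of a type and less RNA per cell cannot be told apart.

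The arrays carried 22180 genes, and values are log2 signals, so a difference of 1 is a 2-fold difference. The tissue label held: all 10 ovary markers examined, among them Star, Inha, Amh and Zp3, were higher in each of the 4 ovaries than in any single-mouse hypothalamus or pituitary. The 4 arrays correlated at 0.980 to 0.985 with each other over all genes and at 0.969 to 0.976 with the pools, while the pools correlated at 0.993. The ovary of the stressed high mouse had the most genes at least 2-fold above the other 3 single-mouse arrays, 87, and the fewest below them, 10; the counts were 40 and 19 in the control high mouse, 24 and 26 in the control low mouse and 6 and 20 in the stressed low mouse.

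No gene passed the test of high against low. In limma's moderated test over the 4 arrays with treatment as a covariate, 0 of 22180 genes (0%) had an adjusted p under 0.05, and none came below 0.616. Before adjustment, 930 genes (4.19% of those tested) were higher and 842 (3.8%) lower in the high mice with a p under 0.05. The fit has 1 residual degree of freedom and a median standard error of 0.19, so it limits what can be called, and every difference below is a description of 4 animals. The calls depended on the variance model. With an intensity trend and robust variances limma called 6 genes. Ear6 (limma adjusted p 0.0225), Cks2 (0.0226) and Ly96 (0.0284) were called as higher, and Col1a1 (0.0284), Palld (0.0388) and Peg3 (0.0409) as lower. In limma's fit of all 6 ovary arrays, which called none, leaving out the control high mouse left the stressed high mouse alone as the high class. That mouse is then assumed to vary like the other groups. The interferon response genes Oas1g and Ifit1 were higher by 4.06 and 3.57 in that fit. Leaving out the stressed low mouse from the 6-array fit left the control low mouse alone as the low class, under the same assumption. The cartilage collagen Col2a1 was then lower by 3.01.

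The control pair and the stress pair were only weakly alike. Across the 22180 genes the high minus low differences of the 2 pairs, which share no array, correlated at a Pearson r of 0.12 and a Spearman rho of 0.15, and at 0.28 and 0.32 over the 11090 genes at or above the median level. These are correlations across genes, which are not independent replicates. In both treatments 6012 genes (27.1%) were higher in the high mouse and 6432 (29%) lower, while 9730 (43.9%) differed in opposite directions. Both high mice lay above both low mice for 3621 genes (16.3%) and below both for 4318 (19.5%). A difference of at least 2-fold in both treatments was rare: 11 genes (0.0496%) were higher, 11 (0.0496%) lower and 11 (0.0496%) opposite. Within the control pair 309 genes (1.39%) were at least 2-fold higher and 202 (0.911%) at least 2-fold lower, and within the stress pair 260 (1.17%) and 101 (0.455%).

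**Figure D1:**
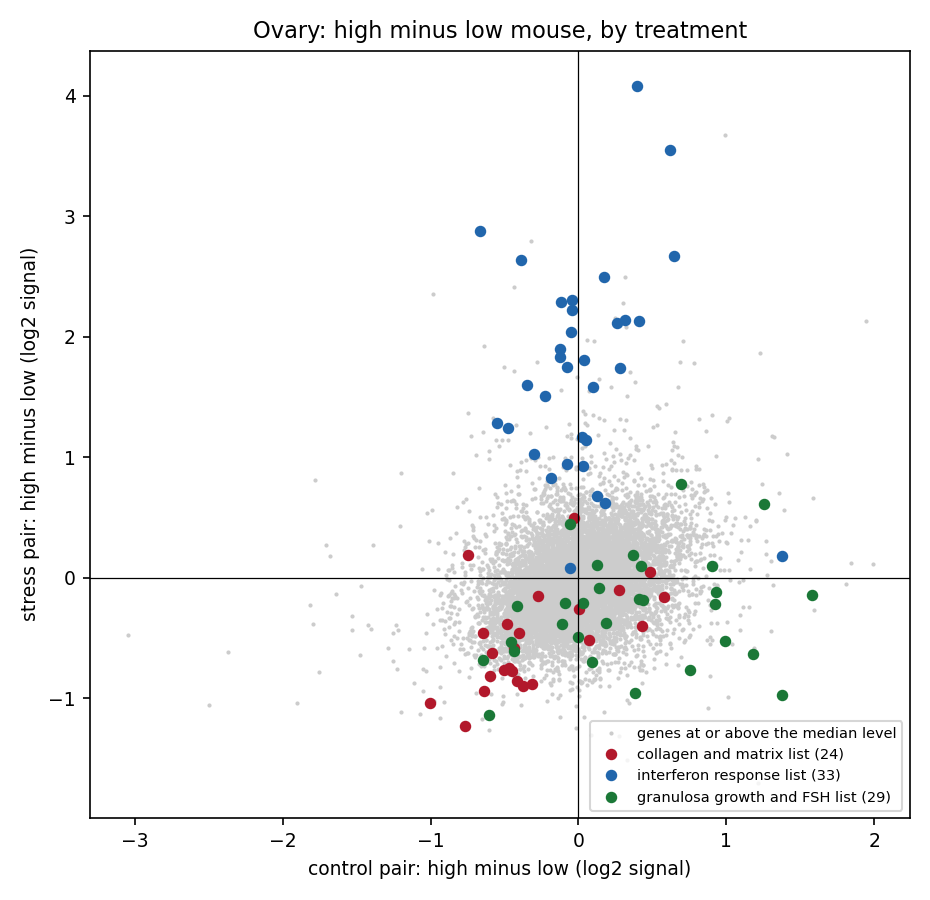
Each point is a gene, with its high minus low difference in the control pair (x axis, log2 signal) and in the stress pair (y axis, log2 signal). Grey points are genes at or above the median level, red the collagen and matrix list, blue the interferon list and green the granulosa list. The red points gather at the lower left, and the blue ones spread along the stress axis around a control median of -0.04. The green ones lie mostly to the right, with 22 of 29 stress differences below 0.

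Genes of the collagen matrix were lower in the high mice of both treatments. Of 24 collagens and associated matrix proteins, 16 were lower in both pairs and 1 was higher in both, against the 29% and 27.1% of all genes. The median difference was -0.42 in the control pair and -0.55 in the stress pair, where the medians over all genes were 0.01 and -0.02. In 14 of the 24 both high mice lay below both low mice, where the share of all genes was 19.5%. An unadjusted limma p under 0.05 in that direction was found for 13, where the share was 3.8%, and an adjusted p under 0.05 for none.

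Col1a1 and Col1a2 encode the chains of type I collagen, the main fibre of connective tissue. Col1a1 read 10.02 in the control high mouse, 11.03 in the control low mouse, 9.49 in the stressed high mouse and 10.53 in the stressed low mouse. The high mouse was the lower of each pair, with a difference of -1.004 in control and -1.04 in stress, and the 2 classes did not overlap (mean difference -1.02, 95% confidence interval -1.47 to -0.58, limma adjusted p 0.616). Col1a2 followed the same order, with 9.75, 10.39, 9.26 and 10.19, and also did not overlap. Col11a1, a chain of a minor fibril collagen, read 6.54 and 7.31 in the control high and low mouse and 5.77 and 7.004 in the stress pair, again without overlap. Col12a1, which coats fibrils, differed by -0.60 and -0.82. The basement membrane chain Col4a2 differed by -0.59 and -0.63, and Col5a1, which sets the width of fibrils, by -0.51 and -0.77. Not every matrix gene shared this order: Lum, a proteoglycan of collagen fibrils, differed by 0.43 in control and -0.40 in stress, Col18a1 by -0.75 and 0.18, and Col4a3 by 0.58 and -0.16.

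The pools did not lie between the extremes for these genes as a group. The mean level of the list was 8.22 and 7.87 in the control and stressed high mouse, and 8.52 and 8.39 in the low mice. It was 7.86 and 7.89 in the pools, about as low as in the lower high mouse. The pools also stood apart over all genes, correlating with single mice at 0.969 to 0.976, against 0.980 to 0.985 among the single mice. Whether the level of the pools goes with oocyte number was not tested. In the other organs of the same mice the list had medians of 0.06 and -0.42 in the control and stress pair of the pituitary and of 0.00 and 0.06 in the hypothalamus. Col1a1 itself was lower in the stressed high mouse in all 3 organs, by 2.71 in the pituitary and 2.31 in the hypothalamus. In the stress pair of the pituitary 3 of the 24 genes were higher, so Col1a1 shared the direction of most of the list there. In the hypothalamus 14 were higher, so Col1a1 did not stand for the list in that organ.

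Gene length moved with this difference. Among genes with a signal at the median or above, 10599 of which code for protein, the difference correlated with genomic span in the RefSeq table at a Spearman rho of -0.21 in the control and -0.23 in the stress pair. The median of the mean difference went from 0.07 in the shortest quartile of genes to -0.11 in the longest. The collagen list has a median span of 91.3 kb, and its 12 members in the longest quartile had medians of -0.49 and -0.60. The part of length in the collagen difference was not tested. Markers of other stromal cells moved less: the medians were -0.04 and -0.17 for 16 smooth muscle and pericyte genes and -0.06 and 0.01 for 24 endothelial genes, and the mean level of the first list spanned 8.33 to 8.54 in the high and 8.48 to 8.56 in the low mice.

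**Figure D2:**
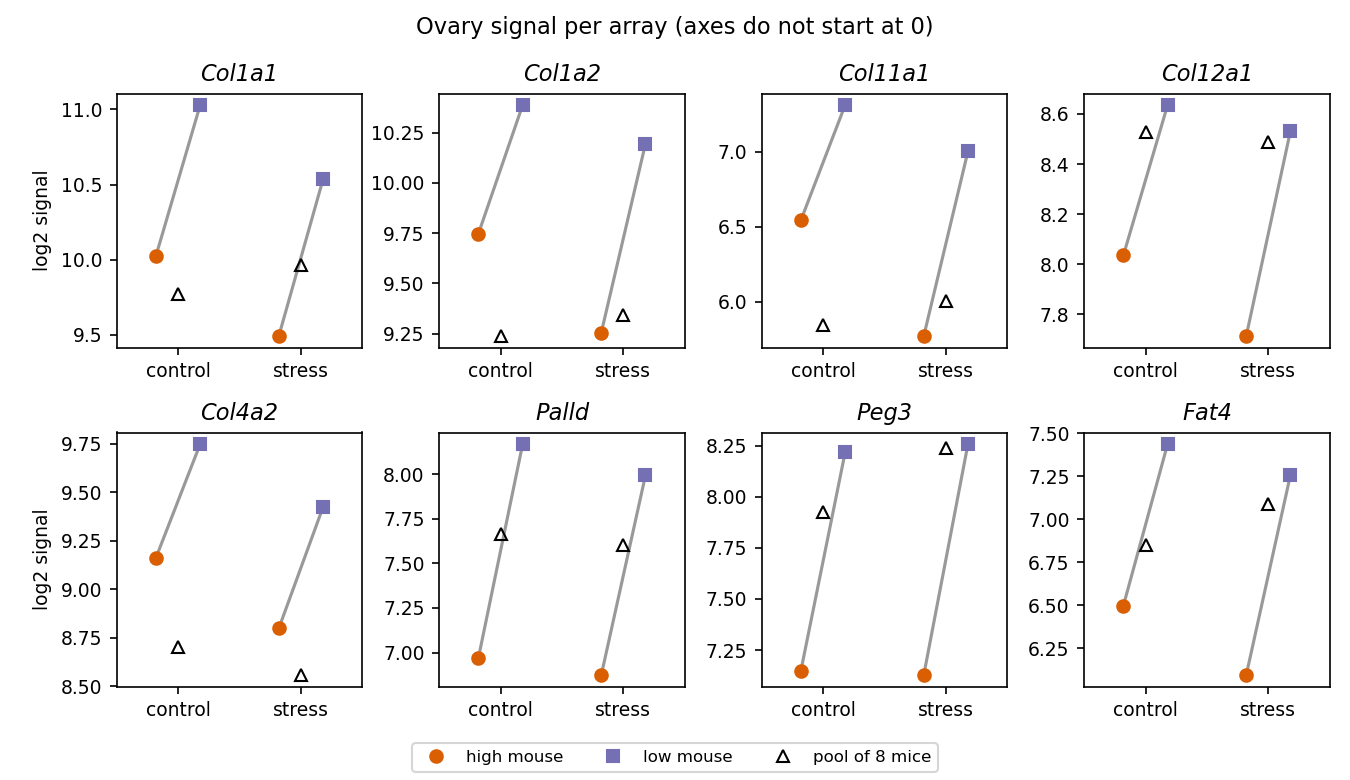
Log2 signal (y axis) of 8 genes that were lower in the high mouse of both treatments, with control and stress on the x axis; circles are the high mouse, squares the low mouse of the same treatment joined by a line, and triangles the pool of 8 mice. In each panel both circles lie below both squares, while for Col1a1, Col1a2, Col11a1 and Col4a2 the control pool lies below the high mouse.

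Beyond collagens, the genes with the largest difference in the same direction included several that shape cells and tissue. The protein of Palld anchors actin bundles. It read 6.97 and 8.17 in the control high and low mouse and 6.87 and 7.99 in the stress pair. The imprinted zinc finger gene Peg3 read 7.15 and 8.22, and 7.13 and 8.26. For both genes the classes were more than 1 log2 unit apart and the 2 treatments nearly equal. The giant cadherin Fat4 differed by -0.94 and -1.16, the secreted guidance factor Sema3d by -2.50 and -1.06, its receptor family member Plxna4 by -0.91 and -1.04, and Fam20a, a pseudokinase of the secretory pathway, by -0.94 and -0.91. Lgr5, a receptor for R-spondins that marks stem cells of the ovarian surface, differed by -1.11 and -0.87. With the mean of all clusters of a gene in place of its brightest, the mean difference was -0.50 for Fat4 and -0.56 for Lgr5. Pygm, the muscle glycogen phosphorylase, Plekhg4, Sh3pxd2b, Onecut2, the aminopeptidase gene Anpep and Polr2a, the largest subunit of RNA polymerase II, completed, with Col1a1 and Col11a1, the 15 genes with the largest same-way deficit. The smaller of the 2 differences was -0.77 or further from 0 in each of the 15. These 15 have a median genomic span of 58.5 kb, and none lies in the shortest quartile.

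Matrix proteases and WNT genes had medians below 0 in both pairs, of smaller size. Of 22 proteases and inhibitors 10 were lower and 4 higher in both pairs, where 29% and 27.1% of all genes were, with medians of -0.10 and -0.34. Mmp14, a membrane protease that activates the gelatinase Mmp2, differed by -0.52 and -0.54, Mmp2 by -0.43 and -0.70 and the collagenase Mmp13 by -1.18 and -0.46. Of 28 WNT genes 12 were lower and 5 higher in both, among them the receptor Fzd1 (-0.60 and -0.45) and the feedback target Axin2 (-0.51 and -0.36). Of 34 TGF-beta family genes 12 were lower and 10 higher in both pairs, near the 29% and 27.1% of all genes. Their medians were -0.03 and -0.07, so the list as a whole took no direction. Within that list the BMP antagonists Grem1 (-0.65 and -0.68) and Chrd (-0.63 and -0.48) and the signal carrier Smad3 (-0.49 and -0.58) were lower. The BMP target genes Id1 (0.38 and 0.68) and Id2 (0.41 and 0.67) were higher. These members were named for the size of their same-way difference. Other BMP antagonists and target genes of the list are not given here, and BMP signalling was not tested.

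The genes higher in both high mice were short and mixed in function. Ear6, an eosinophil-associated ribonuclease, had the smallest p of all genes (limma p 4e-05, adjusted p 0.616). It read 7.03 in the control high mouse, 5.08 in the control low mouse, 6.35 in the stressed high mouse and 4.22 in the stressed low mouse, and 4.42 and 4.97 in the pools. Both high mice lay above all 4 other ovary arrays. Its family has near-identical copies, so the signal may not be its own; Ear10 and Ear14 differed by no more than 0.26 in size in either pair, while the related ribonuclease Rnase2a, picked after its value was seen, differed by 0.22 in control and 1.98 in stress. Cks2, a subunit of cyclin-dependent kinases needed for meiosis, read 9.20 and 7.88 in control and 8.99 and 7.82 in stress, and the pools, at 10.05 and 10.26, lay above both classes. Ly96, a co-receptor for bacterial lipopolysaccharide, read 9.14 and 8.13 in control and 10.02 and 8.73 in stress. Casp4, an inflammatory caspase, differed by 1.31 and 1.17, and the mast cell protease Cpa3 by 0.93 and 1.01. The iron hormone gene Hamp read 6.77 and 5.78 in control and 7.07 and 3.40 in stress; its difference of 0.99 and 3.67 was the most unequal of the set, with a confidence interval of 0.89 to 3.78. Nts, the neurotensin precursor, differed by 1.02 and 1.33, the lipid carrier Fabp4 by 0.86 and 1.22, and the LIM protein gene Fhl5 by 0.91 and 1.35. The histone gene H2bc12, the matrix proteoglycan Omd, Vamp7, Serpinb6b, Kcne3 and Edn2 made up the 15. Their median genomic span was 8.66 kb, 9 of 15 lie in the shortest quartile and none in the longest.

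The interferon response set the stressed high mouse apart. Cells that sense viral nucleic acid or interferon switch on a common set of genes, among them nucleic acid sensors (Oas and Ifit families), GTPases that attack intracellular microbes (Gbp and Irg families) and their own regulators (Irf7, Usp18). Many carry an interferon-stimulated response element near the start, and the letters of its core, GAAANNGAAA, or TTTCNNTTTC on the other strand, were searched on both strands in the RefSeq promoters of build GRCm38.p6, from 250 bases before to 50 bases after the start. Of 25 list genes with a promoter entry 15 (60%) held a match, against 657 of all 16990 measured genes with an entry (3.87%). A match is a description of the letters and not a site shown to work. The stretches below come from 5 list genes with a large stress difference and a match upstream of the start. The choice left out the genes of a chromosome and matches close to the start, so these need not be the 5 largest. They show where the letters lie in genes whose values follow. They are given on the strand of the gene with every match in capitals; Ifit1 and Gbp3 hold 2 matches each and Isg15 holds 3, and those of Gbp3 and Isg15 overlap.
Ifit1, chr19:34640784-34640833, plus strand: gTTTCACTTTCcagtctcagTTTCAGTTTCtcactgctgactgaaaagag
Gbp3, chr3:142559985-142560034, plus strand: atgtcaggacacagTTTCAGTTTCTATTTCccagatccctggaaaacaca
Isg15, chr4:156200855-156200904, minus strand: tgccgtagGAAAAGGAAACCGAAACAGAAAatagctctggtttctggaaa
Cxcl10, chr5:92349073-92349122, minus strand: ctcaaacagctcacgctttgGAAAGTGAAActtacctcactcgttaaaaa
Igtp, chr11:58199502-58199551, plus strand: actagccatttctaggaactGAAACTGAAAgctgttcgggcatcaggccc

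Of the 33 interferon genes measured, 26 were at least 2-fold higher in the high mouse of the stress pair, where the share over all genes was 1.17%, and 1 in the control pair, where it was 1.39%. The list median was 1.75 in the stress pair and -0.04 in the control pair. The mean level of the list was 6.69 in the control high mouse, 6.66 in the control low mouse, 6.68 in the stressed low mouse and 8.42 in the stressed high mouse, with 6.87 and 6.78 in the pools, so the list stood apart in 1 of the 6 ovary arrays. Ifit1, whose promoter is shown above, read 9.85 in the stressed high mouse and 6.30 in the stressed low mouse, against 6.73 and 6.11 in the control pair and 7.27 and 7.40 in the pools. Gbp3 read 8.29 in the stressed high mouse and no more than 5.99 in any other ovary. Isg15, a ubiquitin-like modifier, Cxcl10, a chemokine, and Igtp, a GTPase, differed by 2.29, 2.23 and 1.90 in the stress pair and by -0.12, -0.04 and -0.12 in the control pair. Usp18, which removes Isg15 from proteins, was higher in both, by 0.65 and 2.67, as were Rtp4 (0.41 and 2.13), Zbp1 (0.32 and 2.14) and Irgm1 (0.28 and 1.74). Oas1g differed by 0.40 and 4.08; its signal of 2.24 to 2.63 in the other single mice is far below the median gene level of 5.51, and near-identical Oas1 copies exist. Iigp1 (-0.67 and 2.88), Mx1 (-0.55 and 1.28) and Ifit2 (-0.47 and 1.24) were lower in the control high mouse and higher in the stressed one. Trim30a, at 1.37 and 0.18, was the list's single gene past 2-fold in the control pair, and was picked out after its value was seen.

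Most interferon genes were also higher in the other organs of the stressed high mouse. In the stress pair of the pituitary 31 of the 33 genes were higher in the high mouse, 22 of them at least 2-fold, with a median of 1.58. In the hypothalamus 30 were higher, 5 at least 2-fold, with a median of 0.57. The control pair had medians of 0.04 and -0.04 in these organs. Over all genes, 64 (0.289%) were at least 2-fold higher in the stress pair of both ovary and pituitary, and 9 (0.0406%) in all 3 organs. The ovary of the stressed high mouse had 64 genes at least 2-fold above all 5 other ovary arrays. Of these 20 were on the interferon list, and 60 were higher in the pituitary stress pair, 44 of them at least 2-fold, where the shares over all genes were 44.4% and 1.31%. In the hypothalamus stress pair 44 were higher and 8 at least 2-fold, against 54.2% and 1.24% of all genes, and 7 were at least 2-fold higher in both other organs. The mean level of 26 macrophage and myeloid genes was 6.92 and 7.02 in the high and 7.04 and 7.14 in the low mice, and that of 19 lymphocyte genes 4.69 and 4.67 in the high and 4.64 and 4.69 in the low mice. The mean level of 18 genes of MHC antigen presentation, several of which interferon also induces, was 7.83 in the stressed high mouse and between 7.25 and 7.57 in the other 5 ovary arrays. Tap1, Psmb8 and Psmb9 are on both this list and the interferon list. In the stress pair 12 of the 18 were higher, 1 of them at least 2-fold, and 6 lower, with a median of 0.15.

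**Figure D3:**
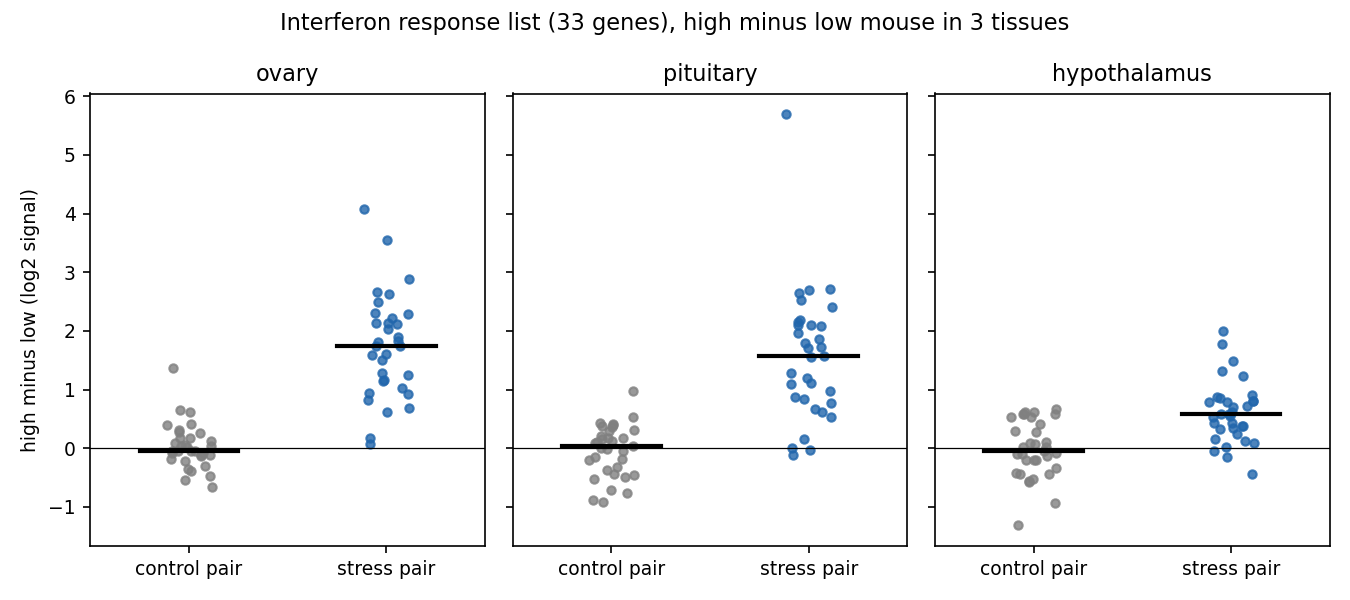
High minus low difference (y axis, log2 signal) of the 33 interferon genes in the control and stress pair (x axis) of ovary, pituitary and hypothalamus; each point is a gene and each black bar the list median. The medians are 1.75, 1.58 and 0.57 in the stress pairs and between -0.04 and 0.04 in the control pairs.

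Granulosa cell genes had medians on opposite sides of 0 in the 2 treatments. Of the 29 measured genes of granulosa growth and follicle-stimulating hormone response, the median was 0.37 in the control and -0.22 in the stress pair. In both pairs 6 were higher and 8 lower, against 27.1% and 29% of all genes. The largest part, 14, was higher in the control high mouse and lower in the stressed one, and 1 went the reverse way. The shares over all genes were 23.9% and 20%. The interaction of class and treatment has no residual degree of freedom, so this contrast between treatments was not tested.

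Fshr, the receptor for follicle-stimulating hormone, was higher in both high mice. It read 7.19 and 5.93 in the control high and low mouse and 7.04 and 6.43 in the stress pair, with no overlap of the classes, and 7.84 and 7.56 in the pools (mean difference 0.93, 95% confidence interval 0.38 to 1.49, limma adjusted p 0.616). Nr5a2, a nuclear receptor required for ovulation and luteinization, read 9.21 and 8.51 in control and 9.74 and 8.95 in stress, with both high mice above both low mice. The inhibin and activin subunits split by treatment. Inhbb read 7.70 and 6.32 in control and 6.66 and 7.63 in stress. Inhba read 6.64 and 5.89, and 6.13 and 6.90. In both genes the control high and stressed low mouse were the high arrays. Inha, the shared inhibin subunit, differed by 0.43 and -0.18. Hsd17b1, which makes oestradiol from oestrone in growing follicles, read 9.69 and 8.51 in control and 8.22 and 8.85 in stress. Igfbp5, which binds insulin-like growth factors (-0.61 and -1.14), Greb1 (-0.45 and -0.53) and Gatm (-0.43 and -0.61) were lower in both, as was Grem1.

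Oocyte gene lists also had medians on opposite sides of 0. For 29 genes of the zona pellucida and oocyte factors the medians were 0.29 and -0.31. Of these 18 were higher in the control high mouse and lower in the stressed one, and 5 the reverse, against 23.9% and 20% of all genes. For 21 genes of the maternal effect complex the medians were 0.34 and -0.09. In both pairs 9 were higher and 3 lower, against 27.1% and 29% of all genes. Many of these signals are low: only 8 of the 29 and 9 of the 21 genes reach the median level. Gdf9, the growth factor by which the oocyte acts on cumulus cells, read 6.11 and 5.34 in control and 5.74 and 5.38 in stress, with both high mice above both low mice. Its partner Bmp15 differed by 0.68 and -0.31, the zona protein Zp3 by 0.90 and -0.38, the translational regulator Btg4 by 1.11 and -0.49, and Nlrp5, a maternal effect gene, by 0.86 and -0.90. The pools lay above all 4 single mice for the mean of both lists, at 5.60 and 5.75 against 4.83 to 5.13 for the first list. Cell cycle genes also differed in the control pair, with a median of 0.38, and had a median of -0.04 in the stress pair. Of 27, 16 were higher in the control high mouse and lower in the stressed one, and 1 the reverse. The shares over all genes were 23.9% and 20%. In both pairs 9 were higher and 1 lower, against 27.1% and 29% of all genes. Ccnb2 (0.95 and 0.31), Nusap1 (1.10 and 0.31) and Cdk1 (0.69 and 0.35) were among the 9.

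**Figure D4:**
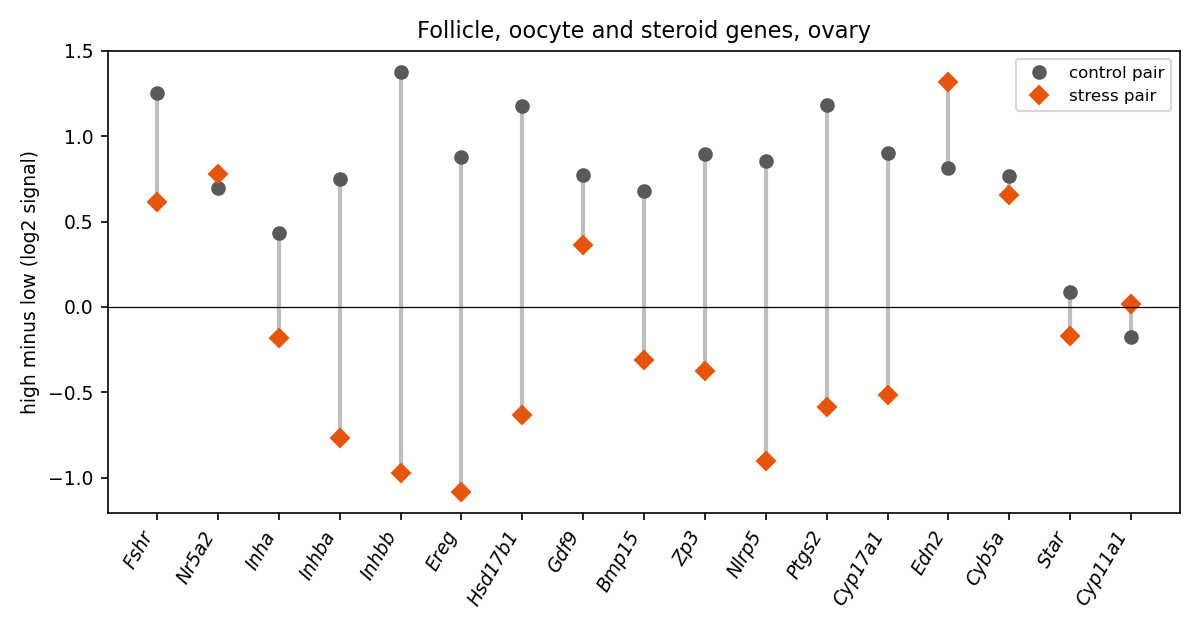
High minus low difference (y axis, log2 signal) in the control pair (circles) and the stress pair (diamonds) for 17 genes of follicles, oocytes and steroid synthesis (x axis). Fshr, Nr5a2, Gdf9, Edn2 and Cyb5a lie above 0 in both pairs, while Inhba, Inhbb, Ereg, Hsd17b1, Nlrp5, Ptgs2 and Cyp17a1 lie on opposite sides of 0.

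Genes of ovulation itself followed no single direction. Of 34 measured, 11 were higher and 7 lower in both pairs, against 27.1% and 29% of all genes, with medians of 0.19 and -0.17. Edn2, the endothelin that contracts the follicle wall at rupture, read 6.78 and 5.97 in control and 6.85 and 5.54 in stress, with both high mice above both low mice. Snap25, a vesicle fusion protein made by granulosa cells at ovulation and also by neurons, read 5.74 and 5.03 in control and 7.30 and 5.33 in stress. Sult1e1, an oestrogen sulfotransferase, differed by 0.98 and 1.68 at a signal of 2.10 to 3.80, and Pparg, a nuclear receptor induced in periovulatory granulosa cells, by 0.82 and 0.58. Of the list's 34 genes 16 differed in opposite directions, close to the 43.9% of all genes. Among them 12 were higher in the control high mouse and lower in the stressed one, and 4 went the reverse way, against 23.9% and 20% of all genes. Ptgs2, the prostaglandin synthase of ovulation, read 7.46 and 6.27 in control and 8.24 and 8.83 in stress, so both stressed mice lay above both control mice. Ereg, an epidermal growth factor family member that relays the luteinizing hormone signal, differed by 0.88 and -1.09, Tnfaip6, which cross-links hyaluronan, by 0.42 and -0.49, and Pgr, the progesterone receptor, by 0.47 and -0.44. Has2, the hyaluronan synthase, differed by -0.14 and -0.29, and the protease gene Adamts1 by 0.43 and 0.10. Areg, Prlr, Lhcgr and Cyp19a1 were not analysed here.

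The luteal machinery for progesterone showed small differences. Star, which brings cholesterol into mitochondria, read 11.81 and 11.73 in control and 12.14 and 12.32 in stress, so the classes overlapped, with a mean difference of -0.04 (95% confidence interval -0.51 to 0.42). For Cyp11a1, which makes pregnenolone, the interval was -0.54 to 0.37, for Hsd3b1, which makes progesterone, -0.29 to 0.63, and for Akr1c18, which inactivates progesterone, -0.73 to 0.24. The mean of the Cyp11a1 clusters gave 0.31 in place of -0.08. Scarb1, the receptor that takes up cholesterol, differed by -0.28 and 0.03. The 27 genes of luteinization had medians of 0.08 and 0.03. In both pairs 8 were higher and 6 lower, against 27.1% and 29% of all genes. Cyb5a, which helps Cyp17a1 make androgens, read 9.97 and 9.21 in control and 9.79 and 9.14 in stress without overlap, while Cyp17a1 itself differed by 0.90 and -0.52. Of 14 theca genes 1 was higher and 5 lower in both, against the same shares of all genes.

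Housekeeping lists were slightly higher in the high mice. For the counts in this paragraph, the shares over all genes were 27.1% higher and 29% lower in both pairs. Of 19 ribosomal protein genes 13 were higher and none lower in both pairs, with medians of 0.20 and 0.14, and of 26 respiratory chain genes 13 were higher and 5 lower, with medians of 0.08 and 0.20. Cox7b (0.73 and 0.76), Ndufs4 (0.63 and 0.60) and Ndufa2 (0.64 and 0.49) led the latter. Lists chosen to follow RNA quality had medians above 0 as well. Of 16 nuclear and snoRNA-host RNAs 8 were higher and 1 lower in both, with medians of 0.24 and 0.27. Of 8 replication-dependent histone genes 5 were higher and 0 lower in both, with medians of 0.33 and 0.17. The part of RNA quality in the class differences was not tested. Genes of the ribosomal and respiratory chain lists are short, with median spans of 3.95 kb and 8.31 kb. Of these genes 14 of 19 and 15 of 26 lie in the shortest quartile. The part of length in their differences was not tested. Hypoxia genes had medians of 0.17 and 0.09, with Pdk1 (0.48 and 0.54) and Egln3 (0.47 and 0.73) higher in both and Adm at -0.48 and 1.26. Immediate early genes, which respond within minutes to handling and to hormones, were lower in both pairs for 12 of 23, with Atf3 (-0.50 and -0.38), Fosl2 (-0.56 and -0.34), Egr1 (-0.31 and -0.40) and Jun (-0.38 and -0.29), and higher for 7, with Btg2 (0.57 and 0.50) and Ier3 (0.85 and 0.36).

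Markers of other cells were mixed. Of 26 macrophage and myeloid genes 11 were lower and 6 higher in both pairs, against 29% and 27.1% of all genes. Csf1r, the receptor of macrophage growth factor, read 7.56 and 8.17 in control and 7.56 and 8.24 in stress. Fcer1g, a signalling subunit of Fc receptors, read 10.06 and 9.25 in control and 10.31 and 9.54 in stress. The classes did not overlap for either gene, in opposite directions. Of 18 neuron and glia genes 8 were higher and 1 lower in both, against 27.1% and 29% of all genes. Snap25 and the neurofilament gene Nefl (0.45 and 1.25) led the first. Only 5 of the 18 reach the median level, and the mean level of the list was 4.91 and 5.12 in the high and 4.88 and 4.64 in the low mice. Pituitary hormone genes averaged 4.49 to 4.85 in the single mice and 5.97 and 6.32 in the pools, which are not part of the comparison.

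**Figure D5:**
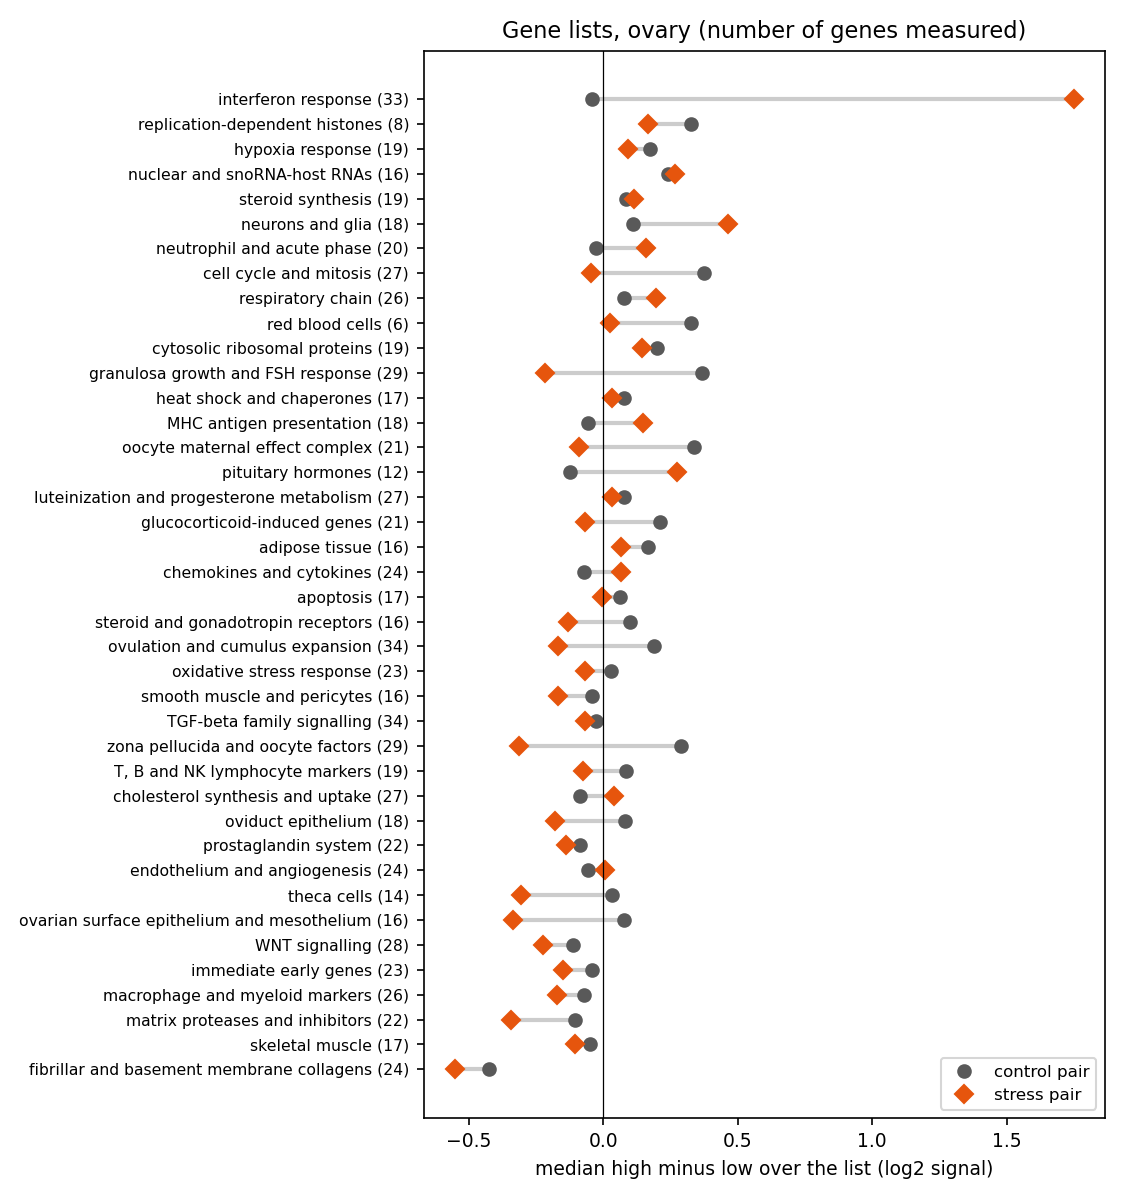
Median high minus low difference (x axis, log2 signal) of each of 40 gene lists (y axis, with the number of genes measured) in the control pair (circles) and the stress pair (diamonds). The interferon list is furthest right in stress at 1.75, and the collagen list is furthest left in both pairs, at -0.42 and -0.55.

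The pool of a treatment holds the mice whose oocyte numbers fell between its extremes. Its signal lay between those of the extremes for 25.04% of all genes in control and 26.1% in stress. For the 15 higher and 15 lower genes with the largest same-way differences this was so for 17 of 30 in control and 16 of 30 in stress. Among genes at least 2-fold apart within a pair, the share was 72.0% of 511 in control and 64.0% of 361 in stress; these genes were chosen for the wide gap in which the pool could fall.

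The difference between classes was also set against that of the other organs. In limma's interaction test over the 12 single-mouse arrays with the mouse as a random block, 0 genes (0%) had a class difference in ovary that departed from that in hypothalamus or from that in pituitary at an adjusted p under 0.05. At an unadjusted p under 0.05 the counts were 2484 (11.2%) and 1099 (4.95%). Over genes at or above the median level, limma called 3 against the hypothalamus: Ogn, a small matrix proteoglycan (adjusted p 0.018), Fhl5 and Ankrd49 (both 0.0472). In the hypothalamus Ogn differed by -2.07 and -2.11, and in the ovary by 0.76 and 0.49. Against the pituitary, Fabp4 differed most, by 2.05 more in the ovary (adjusted p 0.865), with -0.78 and -1.25 in the pituitary pairs. No difference is given here as particular to the ovary.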

How the data were processed

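RNA of 18 tissue samples was hybridised to Affymetrix Mouse Gene 2.0 ST arrays. The authors deposited log2 signals per transcript cluster from Transcriptome Analysis Console, per the submitters' processing notes; its version, background correction and normalization are not given in the sources used here, and detection calls were not used. Of 41345 clusters, 23521 named exactly 1 gene and 1814 several, and 16010 named none, by GEO's platform annotation (23328 matched RefSeq); the cluster with the highest mean stood for each of 22180 genes. The class effect came from limma 3.58.1 in R 4.3.3 on 4 ovary arrays (treatment plus class, eBayes, two-sided, Benjamini-Hochberg over all genes), which was tested on simulated data. With 1 array per class and treatment, the residual spread behind the p-values is the disagreement between the control and the stress difference, moderated across genes. No spread between mice of the same class and treatment is measured, and the number of arrays limits the precision. Named genes were the 15 per direction with the largest smaller-of-2 same-way difference, 6 per direction of opposite difference (both at or above the median level), up to 6 and 3 of each of 40 lists, and 24 fixed ovary genes; others are marked as picked after their values were seen, or were called under an alternative, carry a printed promoter, or are given as family or marker examples. The members and lists were chosen with earlier results of these data known. Alternatives covered normalization, low signals, clusters per gene, samples and variance model.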

Additional observations from a re-analysis of the deposited data

Results flagged for a closer look

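The high minus low difference had opposite signs in the control and the stress pair for 43.9% of all genes, and the median had opposite signs for 20 of 40 lists. Given here are the 12 genes, 6 per direction, with the largest smaller-of-2 differences at or above the median level and the 2 lists whose medians were at least 0.2 in size in both pairs. The difference between the pairs was not tested, because no residual degree of freedom is left for it. The stress minus control difference was -2.35 for Inhbb, -1.999 for Lrrc17, -1.96 for Ereg, -1.81 for Hsd17b1, -1.52 for Inhba and -1.40 for Thbs4, which were higher in the control high mouse and lower in the stressed one. It was 3.55 for Iigp1, 3.34 for Gbp4, 2.59 for Pcsk1n, 2.11 for Elapor1, 2.07 for Tmem71 and 1.71 for Slfn5, which went the other way. The median of the granulosa list differed by -0.58 between the pairs and that of the zona pellucida and oocyte list by -0.60. Only 8 of the 29 genes of the second list reach the median level.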

How the results depend on the processing

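The count of 0 called genes was also 0 under quantile normalization, centring, the mean of a gene's clusters, all transcript clusters, no treatment covariate and all 6 arrays. It was 1 (Ear6, limma adjusted p 0.0387) over genes at or above the median level and 6 with trend and robust variances. Leaving out single arrays in the 6-array fit gave 0 to 27. The 1772 genes with an unadjusted p under 0.05 became 2703 when all clusters were tested. Over genes at or above the median level, the 22 genes 2-fold apart the same way became 12, the 11 opposite ones became 1, and the ovary against hypothalamus calls became 3. The collagen median of -0.53 was -0.42 in the control pair alone. The interferon median of 0.85 was -0.04 in control alone and 1.75 in stress alone, and the granulosa median of 0.11 was 0.37 and -0.22. The pool lay between the pair for 72.0% and 64.0% of 2-fold genes. Of 58 named genes followed, centring and quantile normalization each turned 1 (Inhba, at -0.01) and the cluster mean 1 (Cyp11a1); that mean also brought Fat4 to -0.50 and Lgr5 to -0.56. Of 37 other list medians 4, 4 and 5 changed sign with centring, quantile normalization and the level filter. The causes were not tested. Without the treatment covariate, which compares high with low within each treatment, 1322 genes had an unadjusted p under 0.05.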
